A study of Drosophila melanogaster with 6 samples.

Results

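The cuticular protein genes of Drosophila melanogaster were followed in RNA from whole adult heads. They were taken as the probe sets assigned to a single gene whose symbol begins with Cpr, Ccp84, Lcp, Pcp, Edg or Twdl, together with Acp1 and Acp65Aa, and each gene was read from its probe set of highest mean log2 signal over the arrays. This gave 93 genes, from 99 probe sets, among 10843 genes that have a probe set of their own and 13966 probe sets other than array controls. The symbols comprised 58 Cpr, 20 Twdl, 5 Lcp, 4 Ccp84, 3 Edg, 2 Acp and 1 Pcp gene. The rule used names alone, and no measured value entered it apart from the choice between probe sets of one gene.

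Cuticle is the extracellular matrix that the epidermis secretes and that forms the exoskeleton of an insect, the lens facets of its eye and the lining of its foregut and tracheae. It consists of chitin fibers embedded in cuticular proteins, which are then cross-linked by tanning. Most Cpr, Ccp84, Lcp, Edg and Acp proteins carry the Rebers and Riddiford consensus, a chitin-binding domain, whereas the Tweedle (Twdl) proteins form a separate insect family that lacks it. The genes are transcribed in stage-specific waves around each molt under the control of ecdysone and its response factors, and many lie in clusters of related neighbors.

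The study asked how the RNA-binding protein LARK alters transcript levels when it is overexpressed in neurons. One group came from flies that carry elav-gal4, a pan-neuronal driver, and the uas-lark transgene (elav-gal4; uas-lark/+ males and elav-gal4/+; uas-lark/+ females), and the control flies carried the driver without the transgene (elav-gal4 males and elav-gal4/+ females). Adults of both genotypes were reared at 25 °C under 12 h of light and 12 h of darkness, frozen at ZT6, 6 h after lights-on, and used as a mixture of the sexes. By the series' own design there was 1 RNA sample per genotype, which was labeled and hybridized 3 times, so the 3 arrays per genotype are technical replicates. By that design their spread, and every p-value given here, measures labeling, hybridization and the scaling of the arrays, not the variation among flies. Some genes still differed widely between arrays of one genotype. Cyp4g1 read 11.5, 1077 and 1220.3, and fln 20.6, 926 and 1243, on LARK overexpression arrays 1, 2 and 3. Whether those arrays held the same RNA was not tested. By the same design, differences between genotypes are differences between 2 RNA samples. In whole heads fewer cells of a type and less RNA per cell cannot be told apart. The driver acts in neurons whereas cuticle is made by epidermal cells.

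Signals are the deposited intensities. The study kept for its tests those genes whose raw expression value passed 40 on any array, a filter it applied after another normalization (GCRMA). The same number was carried over here to the deposited signals, where it need not be the same cut. A gene with a signal above 40 on at least 1 array is called detected here. Arrays of the same replicate number had been hybridized on the same day and scaled to the same target, with trimmed mean signals of 150 for number 1, 85.0 for number 2 and 100 for number 3, so each LARK array is compared first with the control array of its own number. The probe set of lark itself read 265, 143 and 166 on the LARK-labelled arrays and 224, 156 and 192 on the control arrays, a mean log2 difference of -0.03 (SE 0.45; adjusted p = 0.999, limma). It did not separate the genotypes, and whether its target sequence is part of the transgene is not given in the sources used here, so the arrays are called LARK-labelled throughout. The first LARK-labelled array stood apart. Over probe sets above 40 its log2 signals correlated at 0.877 and 0.892 with LARK-labelled arrays 2 and 3 but at 0.912 with control array 1, whereas LARK-labelled arrays 2 and 3 correlated at 0.946 with each other. Of the 6 deposited experiment records, its own was the only one that did not name the adult head, although its sample title does. Values are therefore also given for replicate numbers 2 and 3 alone. The ratio of 3′ to 5′ control probe sets was higher on the LARK-labelled than on the control arrays for eIF-4a (6.27 ± 0.24 against 2.88 ± 0.12, SD, n = 3) and for actin (5.84 ± 0.35 against 2.42 ± 0.86), without overlap. It overlapped between genotypes for GAPDH (4.30 ± 0.95 against 3.27 ± 0.67) and for 18S rRNA (1.95 ± 0.64 against 2.15 ± 0.95). The part of RNA quality in the results below was not tested. Of 5 neuron and eye markers on the array, 4 were above 40.

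Of the 93 cuticular protein genes, 61 (65.6%) exceeded a signal of 40 on at least 1 array, against 67.5% of all probe sets. Only 20 genes (21.5%) did so on all 6 arrays, against 38.5% of all probe sets. On single arrays, 42, 37 and 34 of the 93 genes were above 40 on LARK-labelled arrays 1, 2 and 3. On control arrays 1, 2 and 3 the counts were 49, 31 and 37. Of all probe sets, 58.2%, 45.2% and 48.9% passed on these LARK-labelled arrays and 61.3%, 48.0% and 53.2% on these control arrays. The arrays differ in scaling, so 40 is not the same cut on each. The limit was passed by 6 genes only on LARK-labelled arrays and by 9 only on control arrays, against 510 and 959 of the 13966 probe sets. A gene that passed through a single group had to differ, so counts below are given for all 93 genes and for the 20 as well as for the 61.

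Detection varied among the families. All 4 Ccp84 genes, both Acp genes and the single Pcp gene were above 40 on at least 1 array, as were 41 of 58 Cpr genes. Among the Tweedle genes 9 of 20 passed, among the Lcp (larval cuticle protein) genes 2 of 5 and among the Edg (ecdysone-dependent) genes 2 of 3. The 20 genes above 40 on every array were 14 Cpr genes with Ccp84Ad, Ccp84Ae, Edg84A, TwdlM, TwdlJ and Acp1. Just inside the limit were Twdlalpha, whose highest signal was 40.8, Cpr49Ab at 42.4 and Edg91 at 43.2. Just outside it were Twdlbeta at 38.0 and Cpr47Eb and Cpr65Ec, both at 35.5.

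On the LARK-labelled arrays, 1 cuticular protein gene rose by the test across all probe sets and none fell. The gene was Ccp84Ag, and it made up 1 of the 61 detected genes, or 1.64%, against 0.339% of the 9432 probe sets tested that were called higher and 1.21% that were called lower (limma, adjusted p under 0.05). At an unadjusted p under 0.05 there were 13 higher and 1 lower among the 61 genes, against 3.38% and 7.43% of all probe sets tested. With the replicate number as a block no gene passed, and no probe set of the array did (0.00%). On replicate numbers 2 and 3 alone 5 genes passed, all higher, namely Ccp84Ag, Acp65Aa, Cpr97Eb, Cpr100A and Cpr50Cb, against 1.28% of all probe sets called higher and 0.456% called lower.

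Read by replicate number, 19 of all 93 genes were higher on the LARK-labelled array in all 3 pairs, which is 20.4% against 14.3% of all probe sets, and 15 were lower in all 3, which is 16.1% against 25.0%. Among the 61 detected genes 17 (27.9%; all tested probe sets 17.6%) were higher in all 3 pairs and 11 (18.0%; 26.9%) were lower. Among the 20 genes detected on every array, 10 (50%; 21.6%) were higher in all 3 and 2 (10%; 23.1%) were lower. The 3 LARK-labelled signals lay above all 3 control signals for 11 of the 61 genes (18.0%; 3.88% of tested probe sets) and below them for 3 (4.92%; 8.58%), while the groups overlapped for the other 47. The median log2 difference was -0.11 over the 93 genes, equal to the -0.11 over all probe sets, 0.10 over the 61 (all tested probe sets -0.07) and 0.58 over the 20 (probe sets above 40 on all arrays -0.01). Centering each array on its median moved the median of all probe sets from -0.11 to 0.09.

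**Figure D1:**
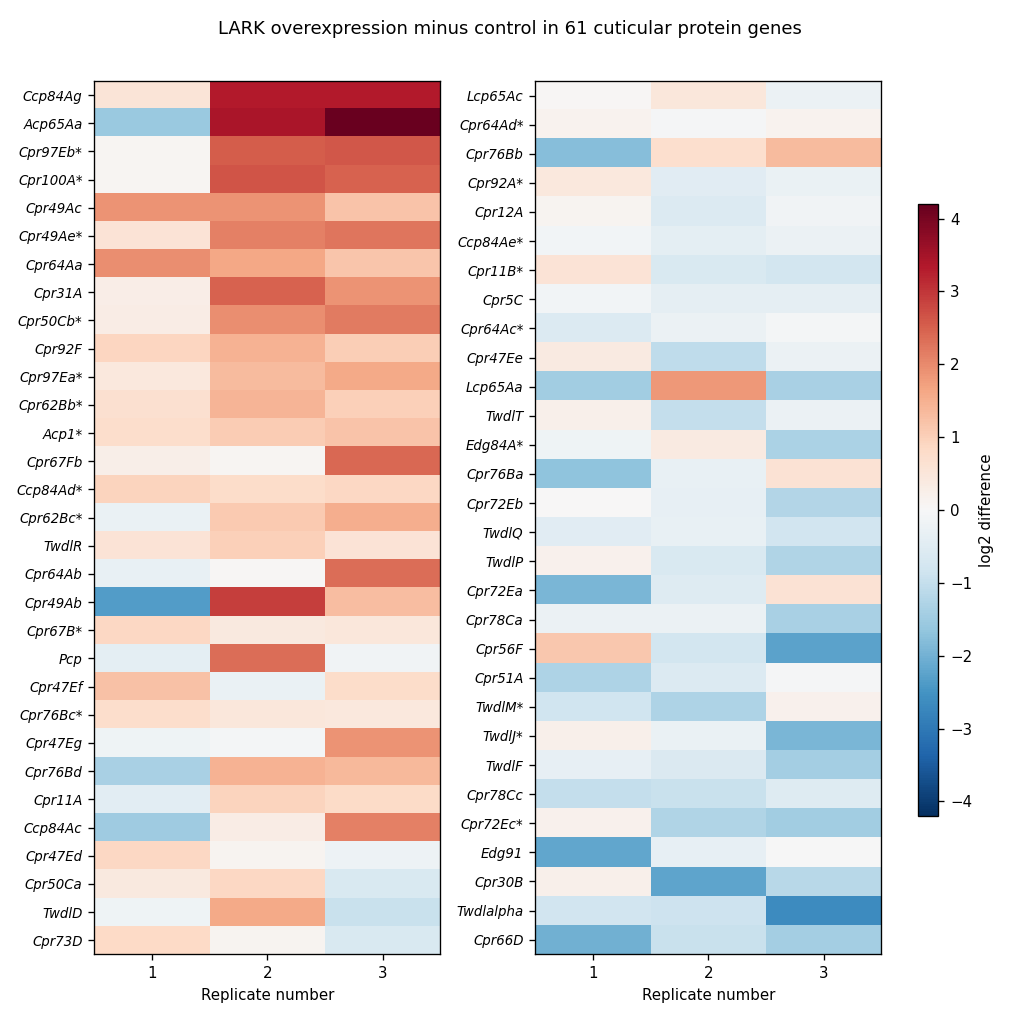
Log2 signal of the LARK-labelled array minus that of the control array of the same replicate number (columns) for the 61 cuticular protein genes above 40 on at least 1 array, ordered by their mean difference. Red is higher and blue is lower on the LARK-labelled array, an asterisk marks the 20 genes above 40 on all 6 arrays, and most genes at the top of the left panel are darker in columns 2 and 3 than in column 1, but not Cpr49Ac and Cpr64Aa.

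Both adult cuticle protein genes were above 40. Acp1, which encodes a small cuticle protein first described in the adult, read 6523, 4290.3 and 4452 on LARK-labelled arrays 1 to 3 and 3903, 2063 and 1945 on control arrays 1 to 3. It was higher on the LARK-labelled array of every number, and the groups did not overlap. Its log2 differences of 0.74, 1.06 and 1.19 gave a mean of 1.0, or 2-fold (SE 0.47), which did not pass the test (adjusted p = 0.453, limma). Acp65Aa, a gene of the 65A cluster transcribed as the adult cuticle forms, read 17.9, 145 and 146 against 52.3, 13.4 and 8.3. LARK-labelled arrays 2 and 3 were high and array 1 was below its control, so that the groups overlapped and the differences were -1.55, 3.44 and 4.14. The mean was 2.01 (SE 0.77; adjusted p = 0.272, limma), and on numbers 2 and 3 alone it was 3.79 (adjusted p = 0.0251, limma).

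The 4 Ccp84 genes belong to a cuticle gene cluster within the Antennapedia complex, and all 4 were detected. Ccp84Ag read 95.9, 126 and 149.7 on the LARK-labelled arrays and 65.2, 12.4 and 15.0 on the control arrays. Every LARK-labelled array was above every control array, but control array 1 was above 40 while control arrays 2 and 3 were well under it. The log2 differences were 0.56, 3.34 and 3.32, with a mean of 2.41 or 5.3-fold (SE 0.58; adjusted p = 0.0449, limma). The call did not hold with the replicate number as a block (adjusted p = 0.169, limma), and with signals under 40 set to 40 the mean was 1.37 (adjusted p = 0.212, limma). Numbers 2 and 3 alone gave 3.33 (adjusted p = 0.0223, limma).

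The neighbors of Ccp84Ag that have a probe set annotated to them alone did not share its values. Whether the probes read for Ccp84Ad also match related genes was not examined. Ccp84Ad read 275, 585 and 378 against 145, 342 and 207, higher on the LARK-labelled array of every number by 0.92, 0.78 and 0.87 on the log2 scale, although the ranges of the groups overlapped. Its mean of 0.86 passed only when the block was combined with an intensity trend and a robust prior (adjusted p = 0.0182; without these 0.637, limma). Ccp84Ae read 373, 287 and 216 against 408, 384 and 256, slightly lower in every pair, with a mean log2 difference of -0.27 (SE 0.45). Ccp84Ac had differences of -1.51, 0.31 and 2.11, which changed sign between pairs. Edg84A, the ecdysone-dependent gene at the end of the same run, read 84.1, 52.2 and 44.4 against 95.9, 40.3 and 111 and had a mean difference of -0.38 with overlapping groups.

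**Figure D2:**
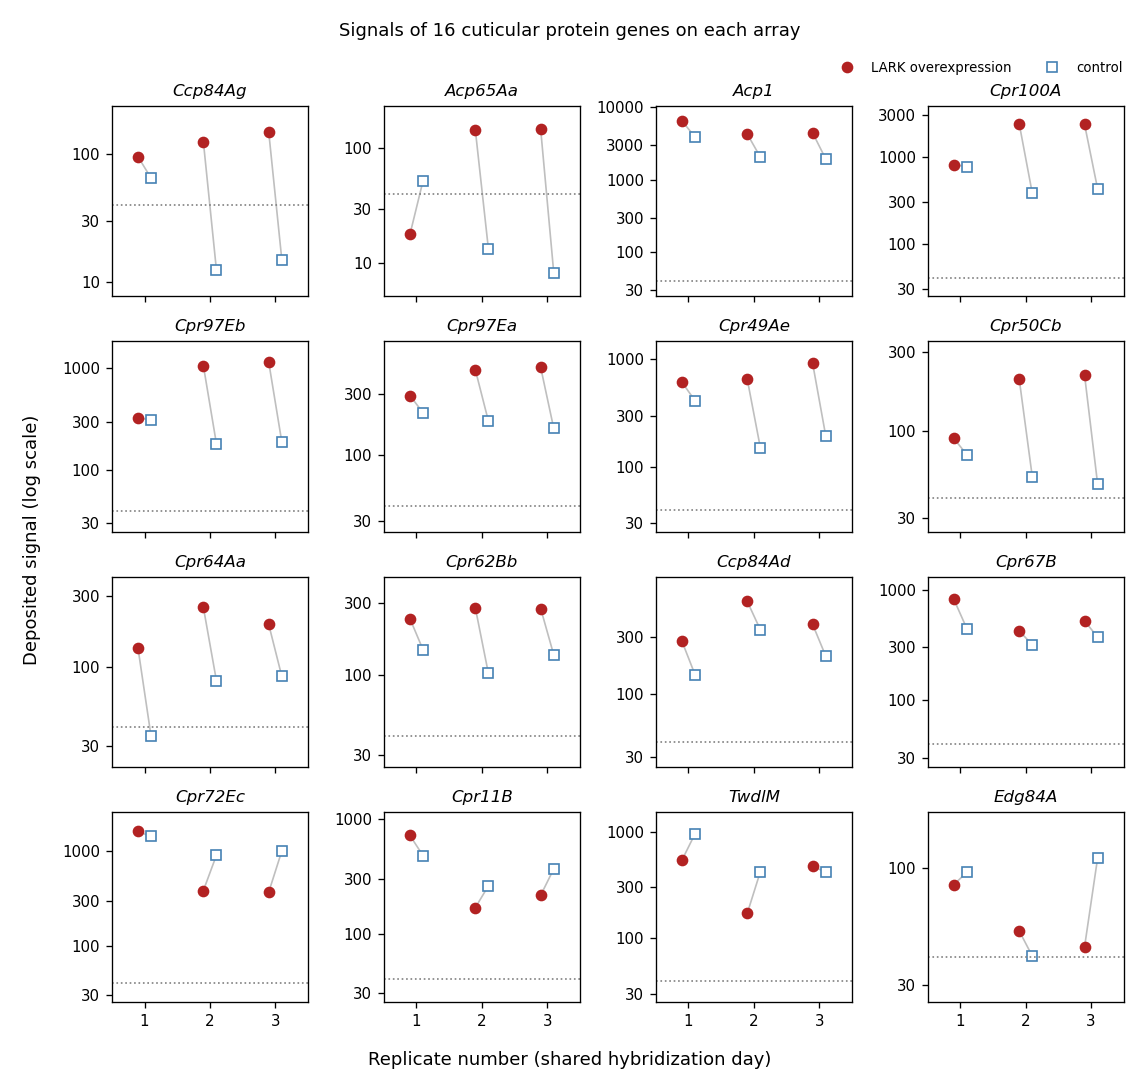
Deposited signal on a log scale against replicate number for 16 cuticular protein genes, with LARK-labelled arrays as filled circles and control arrays as open squares. Gray lines join the 2 arrays of a replicate number and the dotted line marks a signal of 40. In Cpr100A and Cpr97Eb the symbols of number 1 nearly coincide, whereas those of numbers 2 and 3 lie far apart.

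The 41 detected Cpr genes encode proteins named for the chitin-binding consensus and for their chromosome band. Of these, 13 were higher in all 3 pairs (17.6% of tested probe sets) and 6 were lower in all 3 (26.9%). None passed the test. Their mean log2 differences ran from -1.46 to 1.74 with a median of 0.26, against 0.10 over all 58 Cpr genes. The limit of 40 was passed by 6 of the 41 only on LARK-labelled arrays and by 4 only on control arrays. The largest belonged to genes whose first pair barely differed. Cpr97Eb read 328, 1067 and 1154 on the LARK-labelled arrays and 312, 182 and 189.8 on the control arrays. LARK-labelled arrays 2 and 3 were more than 3 times the first, so the differences were 0.08, 2.55 and 2.60 and the mean 1.74 (SE 0.53; adjusted p = 0.13, limma). Numbers 2 and 3 alone gave 2.58 (adjusted p = 0.0267, limma).

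Cpr100A followed the same course with 811, 2393 and 2349.6 against 772, 380.1 and 425. Its differences were 0.07, 2.65 and 2.47, and the mean of 1.73 (SE 0.52) did not pass over all arrays (adjusted p = 0.124, limma) but was 2.56 on numbers 2 and 3 alone (adjusted p = 0.0267, limma). Cpr50Cb read 90.6, 206 and 217 against 72.4, 53.3 and 48.1. All of its LARK-labelled signals were above all of its control signals, and the mean difference of 1.48 (adjusted p = 0.166, limma) became 2.06 on numbers 2 and 3 alone (adjusted p = 0.0391, limma). Cpr49Ae read 614, 652 and 918 against 412, 151 and 195. It was higher in each pair, by 0.57, 2.11 and 2.24, without overlap, and its mean of 1.64 (SE 0.49) had an adjusted p of 0.116 in limma. Cpr31A, at 19.5, 63.0 and 63.0 against 16.2, 11.2 and 17.1, passed 40 only on LARK-labelled arrays 2 and 3 and did not overlap, with a mean difference of 1.55 (adjusted p = 0.187, limma).

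Of 5 other Cpr genes, all but Cpr97Ea differed more evenly over the 3 pairs. Cpr64Aa read 134, 252 and 194 on the LARK-labelled arrays and 34.6, 81.5 and 87.2 on the control arrays. Its differences of 1.96, 1.63 and 1.15 were largest for number 1, the groups did not overlap, and the mean was 1.58, or 2.99-fold (SE 0.49; adjusted p = 0.144, limma). Cpr49Ac read 35.9, 120.2 and 86.7 against 9.6, 32.4 and 37.7, with differences of 1.90, 1.89 and 1.20 and a mean of 1.67 (adjusted p = 0.217, limma). Cpr92F read 75.2, 62.1 and 105 against 40.2, 22.6 and 50.6. It differed by 0.90, 1.46 and 1.05 without overlap, a mean of 1.14. Cpr62Bb, at 236, 278 and 275 against 147, 103 and 136, differed by 0.68, 1.43 and 1.01, and Cpr97Ea, at 291, 464 and 484 against 213, 184 and 161, by 0.45, 1.34 and 1.59. Neither overlapped between genotypes, and their means were 1.04 and 1.13. These 5 genes, with Acp1 and Ccp84Ad, were the 7 of the 61 that passed once the block was joined by an intensity trend and robust prior, at adjusted p of 0.00749 to 0.0419 in limma (background 1.51% of probe sets higher), and none of the 5 called on numbers 2 and 3 alone was among them.

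The other Cpr genes above 40 on every array had smaller mean differences. Cpr67B read 815, 423 and 521 against 442, 317 and 372 and was higher in each pair, by 0.88, 0.42 and 0.49. Cpr76Bc, at 111, 66.1 and 87.2 against 66.4, 47.6 and 63.9, was also higher in each, with a mean of 0.55. Their groups overlapped and neither passed. Cpr62Bc read 147, 422 and 424 against 178, 197 and 148, which was lower in the first pair and higher in both others, a mean of 0.78. Cpr64Ad, at 210.3, 113 and 152 against 189.6, 116 and 136, had a mean of 0.09. Without the first LARK-labelled array this was -0.14 on the deposited scale, but centered arrays left out in turn gave 0.24 to 0.36. Cpr92A, at 118, 57.3 and 58.0 against 88.0, 79.0 and 71.1, had a mean of -0.11 that turned to 0.09 once the arrays were centered. Cpr64Ac read 156, 72.4 and 94.3 against 232, 85.7 and 98.8, a mean of -0.30, and Cpr11B read 724, 169 and 217 against 482, 262 and 369. In Cpr11B the first pair differed by 0.59 and the others by -0.63 and -0.77.

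Both Cpr genes known to encode proteins of the corneal lens were measured. Cpr72Ec read 1623, 383 and 369 on the LARK-labelled arrays and 1434, 909 and 1005 on the control arrays. LARK-labelled arrays 2 and 3 were the lowest of the 6 and array 1 was the highest, so that the differences were 0.18, -1.25 and -1.45 and the mean -0.84 (SE 0.56; adjusted p = 0.765, limma), or -1.35 on numbers 2 and 3 alone (adjusted p = 0.0813). Cpr66D read 17.4, 11.6 and 8.6 against 70.1, 22.1 and 23.3. Every LARK-labelled array was below every control array, by -2.01, -0.93 and -1.44 on the log2 scale, but only control array 1 exceeded 40. Its mean of -1.46 (SE 0.52; adjusted p = 0.233, limma) shrank to -0.27 with signals under 40 set to 40. A second probe set of Cpr66D, never above 40, read 10.8, 6.5 and 7.0 against 6.5, 15.5 and 12.7, with overlapping groups. Retinin, a major lens protein outside these families, read 7818, 4977 and 4362 against 4843, 4318 and 4484, a mean difference of 0.29 with overlapping groups.

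Of the Tweedle genes 9 were detected, and their median difference was -0.57, against -0.40 over all 20. Of the 9, 3 passed 40 only on control arrays (TwdlQ, TwdlP and Twdlalpha) and none only on LARK-labelled arrays, so the filter itself favors lower values among the 9. TwdlM read 538, 171 and 473 on the LARK-labelled arrays and 951, 420.1 and 417 on the control arrays. It was lower in the first and second pairs and slightly higher in the third, by -0.82, -1.30 and 0.18, with a mean of -0.64 (adjusted p = 0.917, limma). TwdlJ, at 124, 47.1 and 51.0 against 106, 57.4 and 194, had a mean of -0.66, with the largest gap in the third pair. TwdlT, at 120.3, 38.1 and 51.5 against 104, 75.4 and 60.9, had differences of 0.21, -0.98 and -0.24. Of the 9, 3 were lower in all 3 pairs (26.9% of tested probe sets), among them Twdlalpha at 23.2, 6.7 and 1.4 against 40.8, 12.3 and 8.7. TwdlR alone was higher in all 3 (17.6%), with a mean of 0.72 and signals between 14.9 and 62.0. TwdlR was chosen for mention after its values were seen, and none of the 9 passed the test.

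The genes named for earlier stages were weak. Pcp, the pupal cuticle protein gene, read 36.4, 31.7 and 25.4 on the LARK-labelled arrays against 48.9, 6.3 and 28.3 on the control arrays, so that only control array 1 was above 40. Lcp65Ac read 82.3, 52.9 and 57.3 against 79.6, 38.1 and 67.5, a mean difference of 0.10. The groups overlapped for both. Edg91 read 9.5, 24.7 and 25.7 against 43.2, 31.7 and 25.8. Its LARK-labelled arrays were all below its control arrays, though the third pair nearly coincided. Cpr78Ca was the third gene with all LARK-labelled arrays below all control arrays, at 52.4, 47.9 and 32.3 against 61.9, 56.9 and 83.0, a mean of -0.62 (adjusted p = 0.829, limma). Cpr76Bd, at 29.2, 80.9 and 99.3 against 75.2, 29.7 and 38.6, was low on the LARK-labelled array of the first pair and high on those of the others, as was Cpr49Ab at 3.4, 42.4 and 36.3 against 17.3, 5.7 and 14.8. Of the other genes among the 30 of highest mean signal, Cpr72Eb, Cpr47Ee and Cpr12A had mean differences of -0.52, -0.31 and -0.21, with overlapping groups.

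**Figure D3:**
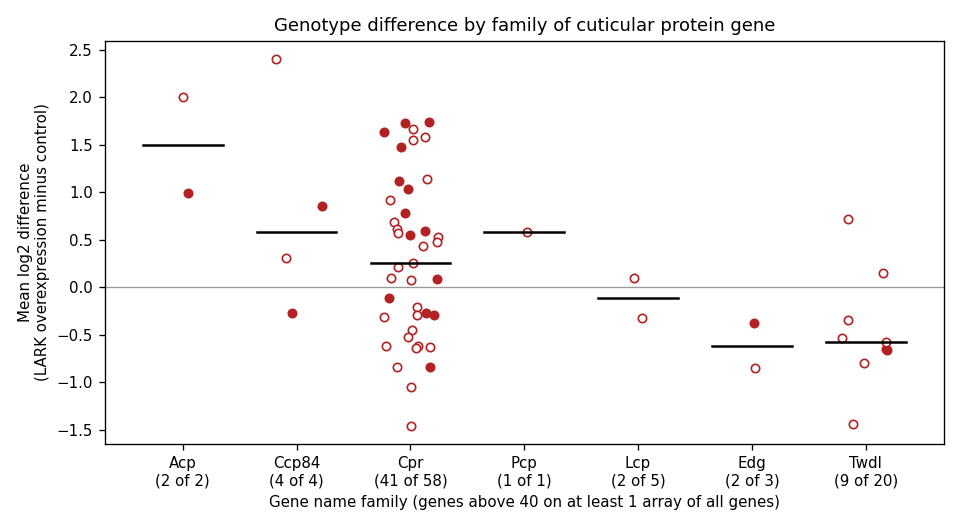
Mean log2 difference (LARK-labelled minus control arrays) of each detected cuticular protein gene by name family, with filled points for genes above 40 on all 6 arrays, open points for the rest and a bar at the median of each family. The Cpr genes spread on both sides of 0 with a median of 0.26, and 7 of the 9 Tweedle genes lie below 0.

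The other 32 of the 93 genes never exceeded 40. The 2 with the highest mean among them were Twdlbeta, at 15.2, 35.5 and 28.7 against 38.0, 20.4 and 32.4, and Cpr78Cb, at 27.7, 9.0 and 22.6 against 12.2, 30.5 and 23.8. In both the groups overlapped widely. This set held 11 Tweedle, 17 Cpr, 3 Lcp and 1 Edg gene. At these signals 2 genes (6.25%) were higher in all 3 pairs and 4 (12.5%) were lower, against 14.3% and 25.0% of all probe sets. The median difference of the 32 genes was -0.20. An additional probe set was present for 6 genes (Cpr73D, TwdlT, Cpr66D, TwdlM, TwdlJ and TwdlN), always of lower mean log2 signal, with maxima from 8.7 to 84.2. In that order the mean log2 differences of these additional probe sets were -1.36, -0.62, -0.46, -0.09, 0.14 and 0.09. Those of the probe sets used were 0.10, -0.34, -1.46, -0.64, -0.66 and 0.09. A further 7 probe sets are assigned to several genes with a cuticular protein gene among them and were left out of all counts.

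Neighboring genes were compared in the gene order of the RefSeq Release 6 assembly, with runs allowed up to 2 other genes between members. In all, 16 runs held 63 of the 93 genes. Cpr97Ea and Cpr97Eb lie side by side, and both were higher in all 3 pairs, with means of 1.13 and 1.74. In the run from Cpr49Ab to Cpr49Af the 3 detected genes had means of 0.61 to 1.67, of which Cpr49Ac and Cpr49Ae were higher in all 3 pairs. Cpr62Bb and Cpr62Bc had means of 1.04 and 0.78. Cpr72Ea, Cpr72Eb and Cpr72Ec all lay below 0, from -0.84 to -0.52. Cpr50Ca and Cpr50Cb had means of 0.21 and 1.48, and in the run from Cpr78Ca to Cpr78Cc both detected genes were lower in all 3 pairs, with means of -0.62 and -0.84. The 6 other runs with more than 1 detected gene held both signs. The 4 genes from Cpr64Aa to Cpr64Ad ran from -0.30 to 1.58, the 5 from Edg84A to Ccp84Ac from -0.38 to 2.41, and the 6 detected genes of the 11-gene Tweedle run from -0.66 to 0.72. Close relatives can share probe sequence, and probes of one array were not compared between genes.

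The pairs were not alike. Of the 61 genes, 4 were over 2-fold higher on the LARK-labelled array for number 1 (6.56%; 3.0% of tested probe sets), 19 for number 2 (31.1%; 8.04%) and 21 for number 3 (34.4%; 8.59%). Over 2-fold lower were 12 (19.7%; 9.93%), 4 (6.56%; 10.9%) and 12 (19.7%; 13.4%). Among the 20 genes above 40 throughout, no gene was over 2-fold higher for number 1, whereas 8 were for number 2 and 8 for number 3 (backgrounds 0.390%, 4.18% and 4.79%). Over 2-fold lower were 0, 2 and 3 of them (3.16%, 3.40% and 5.20%). Over the 61 genes the differences of numbers 2 and 3 correlated at 0.68, against 0.07 and 0.01 between number 1 and each of them, and over all tested probe sets these values were 0.62, 0.26 and 0.33. For the 20 genes they were 0.86, 0.29 and 0.16. These are correlations across genes, which are not independent, and by the series' design the pairs share the 2 RNA samples.

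**Figure D4:**
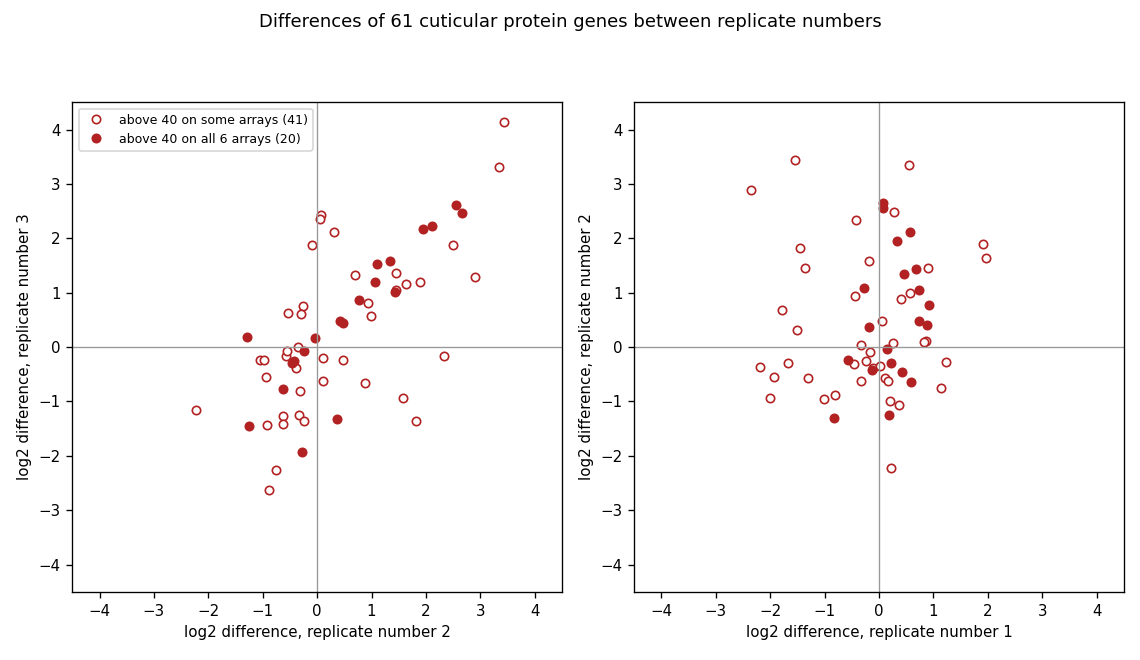
Log2 difference between the LARK-labelled and the control array of one replicate number against that of another for the 61 detected cuticular protein genes, numbers 2 and 3 on the left and numbers 1 and 2 on the right. Filled points are the 20 genes above 40 on all 6 arrays. The left panel lies along its diagonal (r = 0.68) and the right panel does not (r = 0.07).

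Array 1 was also compared with arrays 2 and 3 within each genotype. After each array was centered on its median, 18 of the 61 genes (29.5%; 5.73% of tested probe sets) were over 2-fold higher on both of LARK-labelled arrays 2 and 3 than on array 1, and 4 (6.56%; 3.19%) were over 2-fold lower. On the control arrays the same counts were 3 (4.92%; 1.40%) and 5 (8.20%; 1.59%). The log2 signals of the members on LARK-labelled array 1 correlated at 0.826 and 0.832 with LARK-labelled arrays 2 and 3 and at 0.898, 0.906 and 0.899 with the 3 control arrays, while LARK-labelled arrays 2 and 3 correlated at 0.932. On the centered scale arrays 2 and 3 exceeded array 1 more than 2-fold in both genotypes in Cpr49Ac, Cpr64Aa and Ccp84Ad. For Ccp84Ag, the gene that passed the test, LARK-labelled arrays 2 and 3 lay above array 1 by 1.12 and 1.18 on that log2 scale and control arrays 2 and 3 lay below control array 1, by -1.61 on each. With the first LARK-labelled array left out, 6 of the 61 genes passed the test, all higher (1.65% of all probe sets higher, 3.28% lower), and with the arrays centered as well 14 were higher and 1, Cpr72Ec, was lower (4.51% and 3.16% of all probe sets).

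Genes that build and finish the cuticle around these proteins were read from the same fit. Of 13 genes of chitin synthesis and assembly on the array 9 were detected and none passed, with a median log2 difference of 0.28. serp, a chitin deacetylase, read 338, 601 and 678 on the LARK-labelled arrays against 257, 176 and 177 on the control arrays and was higher in every pair, by 0.40, 1.77 and 1.94. verm, also a chitin deacetylase, read 761, 912 and 976 against 621, 328 and 392, a mean of 1.03. For knk, which organizes chitin at the cell surface, the signals were 67.9, 109 and 116 against 45.5, 27.6 and 35.9, again with no overlap and a mean of 1.42 (adjusted p = 0.163, limma), while mmy, the enzyme that makes the activated sugar for chitin, had 0.28. The rest of the detected list was Cda4, Gfat2, Cda5, kkv and Chs2, with means of 0.86, 0.11, -0.15, -0.02 and -0.38. Chs2 was lower in all 3 pairs without overlap. Of 12 detected chitinases and imaginal disc growth factors none passed. Cht5, a molting chitinase, read 146, 486 and 455 against 104, 84.4 and 75.1, a mean of 1.87 (adjusted p = 0.0853; 0.0267 on numbers 2 and 3 alone, limma), and Idgf4 and Idgf6, growth factors related to chitinases, had 0.08 and -0.38. knk, serp, Cda4, Gfat2, Cda5, kkv, Chs2, Cht5 and, among the cuticular proteins, Acp65Aa were added to the named genes after their values were seen.

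Chitin-binding proteins of the peritrophin type had the highest median of the cuticle lists, 1.40 over 7 detected genes. Of these, 5 were higher in all 3 pairs (17.6% of tested probe sets) and none passed. obst-A, a chitin-binding organizer of the cuticle, read 530.3, 1206 and 1312 on the LARK-labelled arrays and 336, 242 and 237 on the control arrays. No signals overlapped, and the mean difference was 1.82 (SE 0.48; adjusted p = 0.0742, limma). Gasp, a related protein, read 266, 348 and 489 against 211, 95.3 and 123, a mean of 1.40 (adjusted p = 0.193, limma). None of 5 detected zona pellucida proteins of the apical matrix passed, with a median of 0.19. The largest signals of that list were those of pio, at 1035, 489 and 602 against 779, 296 and 393, with a mean difference of 0.58, and of qsm, with a mean of 0.19.

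All 12 tanning and pigmentation genes on the array were detected, with a median of 0.62. The gene e rose, whose product ebony conjugates beta-alanine to dopamine for sclerotization. It read 433, 1118 and 1258 on the LARK-labelled arrays and 232, 116 and 115 on the control arrays, higher in every pair without overlap, a mean of 2.54 or 5.82-fold (SE 0.52; adjusted p = 0.0228, limma). Of 4 detected genes of cuticular hydrocarbon synthesis Cyp4g1, the oenocyte enzyme of the last step, rose, at 11.5, 1077 and 1220.3 against 16.9, 6.5 and 3.5 (mean 5.09; adjusted p = 0.0453, limma), although its first LARK-labelled array was below its control. It exceeded 40 only on LARK-labelled arrays 2 and 3, and with signals under 40 set to 40 it did not pass (adjusted p = 0.602, limma). None of 9 detected hormone response factors passed, and their median difference was -0.18, against -0.75 over all 11 on the array. EcR, the ecdysone receptor, and the nuclear receptors and zinc finger factor of its cascade ftz-f1, Eip78C and br were lower in all 3 pairs (26.9% of tested probe sets), by means of -1.71, -1.60, -0.75 and -1.04. All 4 exceeded 40 on control arrays only, so they entered the test through the group in which they were high. ftz-f1 read 31.3, 21.2 and 25.3 against 124, 45.3 and 83.8 (adjusted p = 0.123, limma), and none was higher in all 3 pairs. Among the most abundant of the list, Blimp-1, an ecdysone-induced repressor, had a mean of -0.14 (0.07 on centered arrays) and crc, a bZIP factor, -0.18 (0.02 on centered arrays). EcR, ftz-f1, Eip78C and br were named after their values were seen.

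**Figure D5:**
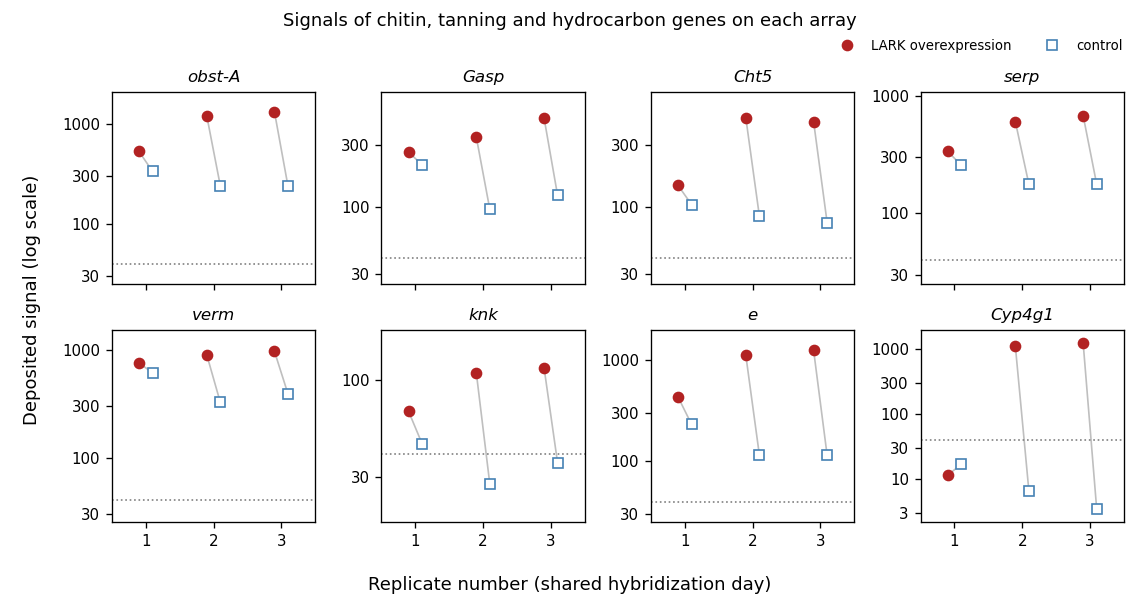
Deposited signal on a log scale against replicate number for 8 genes of chitin binding, chitin processing, tanning and hydrocarbon synthesis, with LARK-labelled arrays as filled circles, control arrays as open squares, gray lines joining the arrays of a number and a dotted line at 40. The circle lies above the square in every pair except the first of Cyp4g1, and by most for numbers 2 and 3.

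Markers of other tissues moved in the same arrays. Of 6 gut genes on the array, all detected, 5 rose and all 6 were higher in all 3 pairs. Over all tested probe sets 0.339% were called higher and 17.6% were higher in all 3 pairs. The median differences of the gut genes were 0.55, 4.57 and 4.55 for numbers 1, 2 and 3. The 5 gut genes that rose exceeded 40 on LARK-labelled arrays only and so entered the test through the group in which they were high. None of them passed with signals under 40 set to 40. Summed over the gut list, the signal was 569, 2241 and 2261 on the LARK-labelled arrays and 207 to 361 on the control arrays. The trypsin gene alphaTry read 13.4, 476 and 429 against 11.9, 6.7 and 8.0, and the maltase gene Mal-A1 read 95.8, 403 and 453 against 24.1, 24.6 and 11.1, with LARK-labelled array 1 low and arrays 2 and 3 high. Jon99Fii and Jon25Biii, digestive proteases, rose by means of 3.32 and 3.71 (adjusted p = 0.0371 and 0.0416, limma). Of 5 muscle genes 1 rose, the flight muscle gene fln, at 20.6, 926 and 1243 against 19.6, 7.4 and 7.6. It too exceeded 40 on LARK-labelled arrays only, and its adjusted p was 0.602 with signals under 40 set to 40 (limma). Act88F, also of the muscle list, read 91.0, 2989 and 3294 against 149, 83.6 and 118, with overlapping groups. Its mean of 3.08 did not pass (adjusted p = 0.137, limma), but numbers 2 and 3 alone gave 4.98 (adjusted p = 0.0140, limma). The genes up, Mlc2 and Tm2 had means of 0.27, 0.17 and -0.14 (Tm2 0.07 on centered arrays), also with overlapping groups. Act88F, up, Mlc2 and Tm2 were picked for mention with their values already known. The muscle list summed to 10672 to 11816 on the LARK-labelled arrays and 6957 to 8606 on the control arrays. Of 5 fat body genes 1 rose, Fbp1, a receptor for larval serum protein, with a mean of 2.78, while the median of the list was -0.21. Its sums were 45572, 26576 and 25111 on the LARK-labelled arrays and 34510, 36961 and 38231 on the control arrays, higher in the first pair and lower in both others. The part of these tissues in the values of the cuticular protein genes was not tested.

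Markers of neurons and blood cells had medians of -0.14 and -0.53, against -0.07 over all tested probe sets. Of the 4 detected neuron and eye genes nSyb, a synaptic vesicle protein, fell, at 209, 121 and 117 on the LARK-labelled arrays against 602, 514 and 625 on the control arrays, a mean of -2.01 (adjusted p = 0.0357, limma), whereas chp, which encodes the photoreceptor protein chaoptin, was higher in all 3 pairs, by 0.29, 0.22 and 0.29, and did not pass. It was named after its values were seen. The list summed to 3122 to 7878 against 3857 to 7421. None of 4 hemocyte genes passed, 3 were lower in all 3 pairs (26.9% of tested probe sets), and the sums of 214 to 776 and 306 to 905 overlapped. srp, the blood cell GATA factor, had a mean of -0.58 and Pxn, a hemocyte peroxidase, 0.10. Their part in the values of the cuticular protein genes was not tested. With the replicate number as a block none of the 10 calls among these and the preceding lists held, at adjusted p of 0.0856 to 0.248 (limma). With an intensity trend and a robust prior added to the block, 10 genes of the lists passed, 7 higher and 3 lower, of which nSyb (adjusted p = 0.00328) and Jon25Biii (adjusted p = 0.0334) were among the 10 calls (limma; 1.51% of all probe sets higher and 4.55% lower). On centered arrays nSyb was the only gene of the lists that passed (adjusted p = 0.0313, limma), and with signals under 40 set to 40 none did.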

How the data were processed

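Total RNA of adult heads was labeled and hybridized to 3 arrays per genotype (Drosophila Genome 1 arrays). The deposited values are linear signal intensities, which the authors made with MAS5 per the submitters' processing notes and scaled to a target that differed between hybridization days. The methods of the study describe another summary of the arrays, GCRMA, and the deposited values were used as they stand. Experiment records gave the hybridization days.

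From 14010 probe sets, 44 array controls were left out. Of the other 13966, 12442 had 1 annotated symbol, 327 several and 1197 none in GEO's platform annotation, and no symbol of a cuticular protein gene changed when matched through gene identifiers to RefSeq. Testing covered the 9432 probe sets whose signal exceeded 40 on at least 1 array, on the log2 scale, with limma 3.58.1 (R 4.3.3; lmFit, eBayes), 2-sided, with Benjamini-Hochberg adjustment over all of them and a threshold of 0.05. No block was used in the fit reported first, so the scaling differences between replicate numbers are part of its error. Arrays of one number shared a hybridization day according to the experiment records. Deviations of same-numbered arrays from their genotype means correlated at 0.0936, 0.172 and 0.0256. Summaries used Python 3.11.15. The fit was checked on simulated data.

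The cuticular protein genes, the related lists and the alternatives were chosen with earlier results of these data known. Named were detected cuticular protein genes among the 30 of highest mean signal, with full values for those past the test, above 40 on all arrays or more than 2-fold different with the same sign in 3 pairs, the genes nearest the limit of 40, the 2 highest undetected genes, and up to 4 genes per list. Further list genes were named after their values were seen, as stated where they appear. One symbol was removed from the zona pellucida list after its values were seen, because its annotated synonyms name a juvenile hormone-binding family. Alternatives were the replicate block, centering, quantile normalization, a floor, an offset of 16, other filters, averaged probe sets and arrays left out in turn. No column of sample values was left unused. Array number limits the precision. No sequences were used here.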

Additional observations from a re-analysis of the deposited data

Results flagged for a closer look

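Outside the genes with a probe set of their own, 7 probe sets are assigned to several genes that include a cuticular protein gene, and 5 of these exceeded 40. One of them, assigned to 2 genes, lay above every control array on every LARK-labelled array. Its signals were 210.1, 140.6 and 155 on LARK-labelled arrays 1 to 3 and 137, 83.9 and 92.7 on control arrays 1 to 3, a mean log2 difference of 0.70 (adjusted p = 0.724, limma), and which of its genes it measured cannot be told apart. Another probe set assigned to 2 genes differed more but overlapped between genotypes, with signals of 208, 626 and 838 against 218, 75.7 and 122, a mean of 1.92 (adjusted p = 0.115; 0.042 on replicates 2 and 3 alone and 0.0015 with 16 added, limma).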

How the results depend on the processing

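The number of cuticular protein genes past the test moved with most choices. It was 1 as reported, 0 with a replicate block, with centered arrays, with quantile normalization, with a floor at 40 and with no filter, 5 with genes above 40 on at least 3 arrays, 5 on replicates 2 and 3 alone, 6 with 16 added, 7 with a filter above 100 and 7 with the replicate block, an intensity trend and a robust prior. Leaving out single arrays gave 0 to 6 genes, and 0 to 15 with centered arrays, where the largest counts came without LARK-labelled array 1. Genes of the related lists past the test numbered 10, and 0 with the replicate block, the floor or no filter, 1 with centering or quantile normalization, 10 (7 higher, 3 lower) with the replicate block, an intensity trend and a robust prior, 11 with genes above 40 on at least 3 arrays, 14 on replicates 2 and 3 alone, 15 with 16 added, 17 with a filter above 100, 2 to 17 with single arrays left out and 0 to 29 with centering as well. The replicate block follows the shared hybridization day.

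The median log2 difference over all 93 genes was -0.11, 0.093 with centering, 0.14 with quantile normalization, 0.10 over detected genes only and -0.24 to 0.16 with single arrays left out. Genes above 40 numbered 61 on at least 1 array, 40 on at least 3, 20 on all 6 and 28 above 100. With all arrays rescaled to a trimmed mean of 100, 55 genes were above 40 on at least 1 array. The sign turned for Cpr92A (0.093 centered, 0.017 quantile), Blimp-1 (0.065 centered, 0.44 on replicates 2 and 3) and crc (0.021 centered), and with single arrays left out, centered or not, for Cpr64Ad (-0.14 to 0.36), Cpr92A (-0.46 to 0.27), Ccp84Ae (-0.47 to 0.20), Cpr11B (-0.91 to 0.19), Cpr64Ac (-0.60 to 0.15), Edg84A (-0.83 to 0.14), TwdlJ (-1.11 to 0.017), Idgf4 (-0.14 to 0.34), qsm (-0.029 to 0.60), Blimp-1 (-0.61 to 0.54), crc (-0.48 to 0.083), srp (-1.15 to 0.12), chp (-0.076 to 0.60) and Pxn (-0.34 to 0.50). Of these, centered values stayed above 0 for Cpr64Ad (0.24 to 0.36), Idgf4 (0.23 to 0.34) and qsm (0.11 to 0.60). Those of chp (0.34 to 0.58) and Pxn (0.074 to 0.50) did as well. For Ccp84Ae, Edg84A and TwdlJ the sign turned only with centering. Without LARK-labelled array 1 and without centering, the median of all probe sets was -0.37. The causes were not tested.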
